A study of Arabidopsis thaliana with 10 samples.

Results

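The TBL and CSL genes of Arabidopsis thaliana were followed in rosettes of mutant lines labelled for the cellulose synthases AtCesA4 and AtCesA6. Plants were homozygous or heterozygous. The ATH1 arrays used measure each transcript with a set of short probes. A probe set was taken where the platform annotation gave it exactly 1 gene whose symbol is TBL with a number, or CSL with a letter from A to G and a number, with or without the prefix AT. This gave 30 probe sets for 30 genes, of 22746 probe sets without the controls of the array maker and 13513 annotated to 1 gene. The members are 22 TBL and 8 CSL genes. The reference TAIR10.1 lists 41 TBL and 30 CSL genes by the same symbols. The members hold all 5 CSLC genes, 2 of 9 CSLA genes and 1 of 6 CSLD genes, and no CSLB, CSLE or CSLG gene, so only CSLC is covered as a whole subfamily.

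All plants were Col-0, untreated, 4 weeks old and grown in a room chamber at 22 °C and 50% humidity. The 10 arrays form 4 groups, which are homozygous AtCesA4 (3 arrays), heterozygous AtCesA4 (3), homozygous AtCesA6 (2) and heterozygous AtCesA6 (2). The labels give the alleles as irx5-2 and irx6-1, and the reference uses IRX6 as the symbol of AT5G15630, a COBRA-like gene, so the names do not settle which gene is mutated in the line called CesA6 here. Each line has 1 allele, wild-type plants were not analysed here, and every heterozygous plant carries a copy of the mutant allele, so heterozygous plants of the same line served as the reference. No probe set was annotated to CESA4 or CESA6 alone, and without these transcripts the labelled genotypes could not be checked. Nothing in the labels says that arrays of a group came from separate plants, so p-values measure the spread between arrays, which may be technical.

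Most polysaccharides of the plant cell wall other than cellulose are made in the Golgi. CSLA proteins make the backbone of glucomannan, CSLC proteins make the glucan backbone of xyloglucan, and CSLD proteins, the nearest relatives of the cellulose synthases, act in tip-growing cells such as root hairs and in dividing cells. TBL proteins (TRICHOME BIREFRINGENCE-LIKE) add acetyl groups to these polymers and to pectin, which changes how the polymers pack and how enzymes reach them. Among the members, TBL28, TBL30, TBL32, TBL34 and TBL35 are known as xylan acetyltransferases, and TBL23, TBL25 and TBL26 as mannan acetyltransferases.

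Values are MAS5 signals on the deposited scale, where the 2% trimmed mean of every array was 100.01. Changes are differences of log2(signal + pseudocount) from a limma fit to all 10 arrays, given with the standard error (SE) of the fit. The pseudocount was 3.2 on the deposited scale, so the changes of dim probe sets are understated. A change was called at a limma adjusted p below 0.05 over the 15923 probe sets tested. Probe sets whose mean lay in the lowest 30% were left untested, among them 5 members, all TBL. Signals of different probe sets are not comparable as transcript levels, so each gene is compared with itself only. In whole rosettes, fewer cells of a type and less RNA per cell cannot be told apart. Correlations between arrays of a group ran from 0.935 to 0.954.

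**Figure D1:**
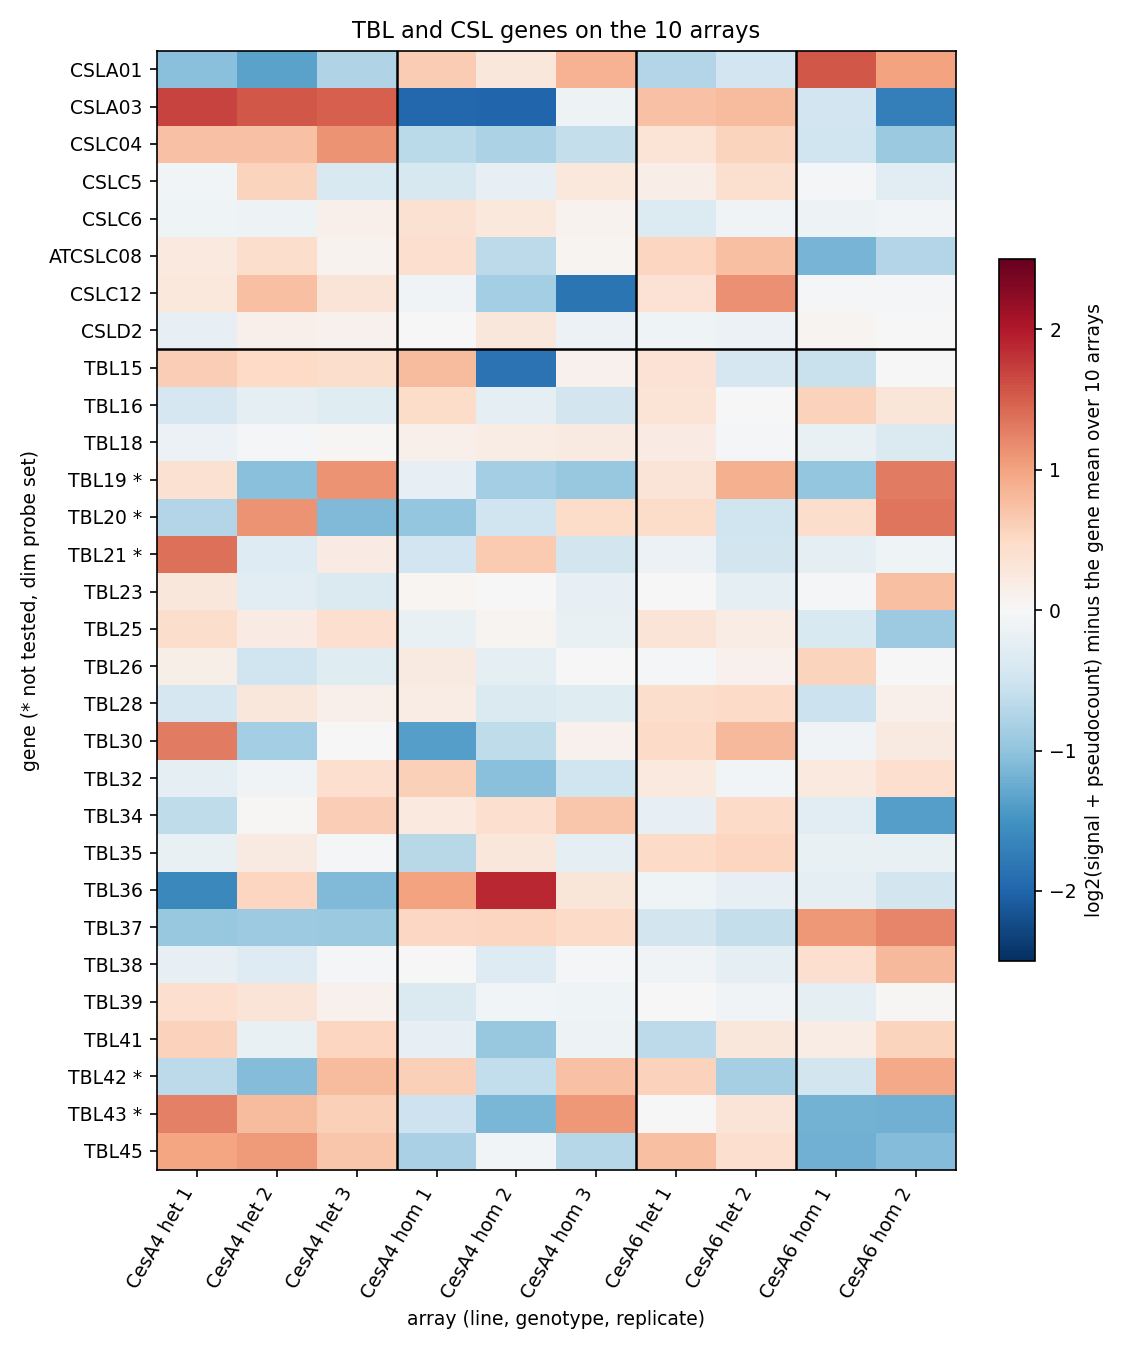
Log2(signal + pseudocount) of the 30 TBL and CSL genes on each of the 10 arrays, less the mean of the gene over all arrays (red above, blue below), with vertical lines between the groups and a horizontal line between CSL and TBL. CSLA01 and TBL37 are red in the homozygous groups of both lines, CSLA03, CSLC04 and TBL45 are blue or near white there, and the 5 starred genes, which were not tested, vary within groups.

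In both lines the same 4 members changed, in the same direction. CSLA01 and TBL37 were higher in homozygous than in heterozygous plants, and CSLC04 and TBL45 were lower. CSLA03 passed in the CesA4 line only, and ATCSLC08 and TBL25 in the CesA6 line only. None of these 3 genes passed the test of the difference between the lines, which had little power. In simulated data it recovered 0% of probe sets with a true log2 difference of 1, and 43.9% of those with 2. These shares rest on 67 and 66 changed probe sets of any brightness among 15923. They are not the power for the 3 genes named. The other 18 tested members passed in no comparison.

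Within the CesA4 line, homozygous plants were first set against heterozygous ones. Of 25 tested members 5 were called, 2 higher (CSLA01 and TBL37) and 3 lower (CSLA03, CSLC04 and TBL45). That is 20.0% of the members, where limma called 15.1% of all probe sets (8.20% higher and 6.93% lower). The members were chosen with earlier results of these data known, so such shares are descriptive only, here and below. By family, 3 of 8 CSL and 2 of 17 TBL genes were called. The median log2 change of the 25 members was -0.16, against 0.02 over all probe sets tested.

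Of the glucomannan synthase subfamily CSLA, both members were called, in opposite directions. CSLA01 (AT4G16590) read 248.9, 193.0 and 292.1 in homozygous and 75.3, 60.85 and 92.84 in heterozygous CesA4 plants. The lowest homozygous array was above the highest heterozygous one, and the log2 change was 1.64 ± 0.20 (SE, adjusted p = 1.87e-06), or 3.12-fold. CSLA03 (AT1G23480), a contributor to stem glucomannan, read 1.006, 0.9553 and 11.8 in homozygous and 49.72, 44.79 and 42.84 in heterozygous plants. Homozygous replicates 1 and 2 were below the pseudocount, replicate 3 was above it, and none reached the heterozygous range. The log2 change of CSLA03 was -2.93 ± 0.59 (adjusted p = 0.000904). The size depends on the pseudocount. It was -3.77 with a pseudocount of 4 and -1.81 with one of 64 on the scale of the fit, where 16 was used, and -1.62 on the deposited scale with 16.

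Of the 5 xyloglucan backbone genes of subfamily CSLC, CSLC04 alone was called in the CesA4 line. CSLC04 (AT3G28180), the best studied xyloglucan glucan synthase, read 151.4, 140.6 and 160.3 in homozygous and 407.4, 411.4 and 538.8 in heterozygous plants. The groups lay far apart, with a log2 change of -1.56 ± 0.17 (adjusted p = 2.89e-07), or 2.94-fold lower. CSLC12 (AT4G07960) missed the threshold at -1.37 ± 0.61 (adjusted p = 0.148), with 9.957, 4.568 and 0.7805 in homozygous against 13.58, 20.53 and 14.36 in heterozygous plants. CSLC5 (AT4G31590) stood at -0.15 ± 0.22, CSLC6 (AT3G07330) at 0.29 ± 0.22 and ATCSLC08 (AT2G24630) at -0.32 ± 0.33, and their homozygous and heterozygous arrays overlapped.

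CSLD2 (AT5G16910), which acts in root hair growth, read 70.43, 85.86 and 62.48 in homozygous and 60.36, 76.4 and 75.83 in heterozygous CesA4 plants. These overlapped, and the log2 change of 0.04 ± 0.20 had a 95% interval from -0.39 to 0.46. Root markers bear on a gene of root hairs. Of 5 listed root markers 3 had a named probe set, with summed signals from 287 to 455.7 in homozygous and from 108.3 to 315 in heterozygous CesA4 plants, and from 295.8 to 367.3 against 114.7 to 138.3 in the CesA6 line. Nearly all of this was PYK10, which did not pass in the CesA4 line (1.02 ± 0.34, adjusted p = 0.0736). It also missed in the CesA6 line, at the threshold (1.52 ± 0.41, adjusted p = 0.05 as rounded). The other 2 were too dim to be tested. The root hair gene EXPA7 had lower means in homozygous than heterozygous plants, 1.465 against 2.262 (CesA4) and 1.501 against 10.44 (CesA6). PEP had 5.112 against 6.501 and 10.74 against 6.755. The part of root tissue in the results was not tested.

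Of 17 tested TBL genes, 1 was higher and 1 lower in homozygous CesA4 plants. TBL37 (AT2G34070) read 226.3, 229.2 and 219.7 in homozygous and 80.5, 82.99 and 81.71 in heterozygous plants. The arrays of each group agreed closely, and the log2 change was 1.43 ± 0.15 (adjusted p = 3.66e-07), or 2.69-fold, with the smallest SE of the 25 members. TBL45 (AT2G30010) read 47.19, 80.47 and 50.25 against 170.6, 180.1 and 139.1. All 3 homozygous arrays were below the heterozygous ones, with a log2 change of -1.44 ± 0.21 (adjusted p = 3e-05), or 2.72-fold lower.

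None of the 5 xylan acetyltransferase genes was called in the CesA4 line. Their log2 changes ran from -0.79 ± 0.68 (TBL30, AT2G40160) to 0.45 ± 0.57 (TBL34, AT2G38320), with a median of -0.21. None of the 3 mannan acetyltransferase genes was called either. TBL26 (AT4G01080), shown for its signal, the highest mean among the TBL probe sets, read 1056, 762.2 and 912.4 in homozygous and 996.3, 637.1 and 727.2 in heterozygous plants. The groups overlapped, and the change of 0.22 ± 0.18 had an interval from -0.14 to 0.59. TBL25 (AT1G01430) read 131.9, 157.3 and 130.8 against 205.4, 173.4 and 201.7, with no overlap, but its change of -0.46 ± 0.17 did not pass (adjusted p = 0.0828). TBL23 (AT4G11090) stood at 0.08 ± 0.24.

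TBL36 (AT3G54260) had the largest positive estimate of the members in the CesA4 line without passing. It was chosen for description after its values were seen. It read 228.7, 423.3 and 138.6 in homozygous and 34.47, 164.9 and 50.74 in heterozygous CesA4 plants, so the array of heterozygous replicate 2 lay within the homozygous range. The change was 1.79 ± 0.62 (adjusted p = 0.114), with an interval from 0.32 to 3.25. Without heterozygous CesA4 replicate 2, the overlapping array, it was 2.42 and passed (adjusted p = 0.000189). In 17 of 19 alternative settings it stayed uncalled, with changes down to 1.34 and adjusted p up to 0.255. In the CesA6 line TBL36 read 94.49 and 81.47 in homozygous and 104.5 and 97.79 in heterozygous plants, a change of -0.20 ± 0.76.

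**Figure D2:**
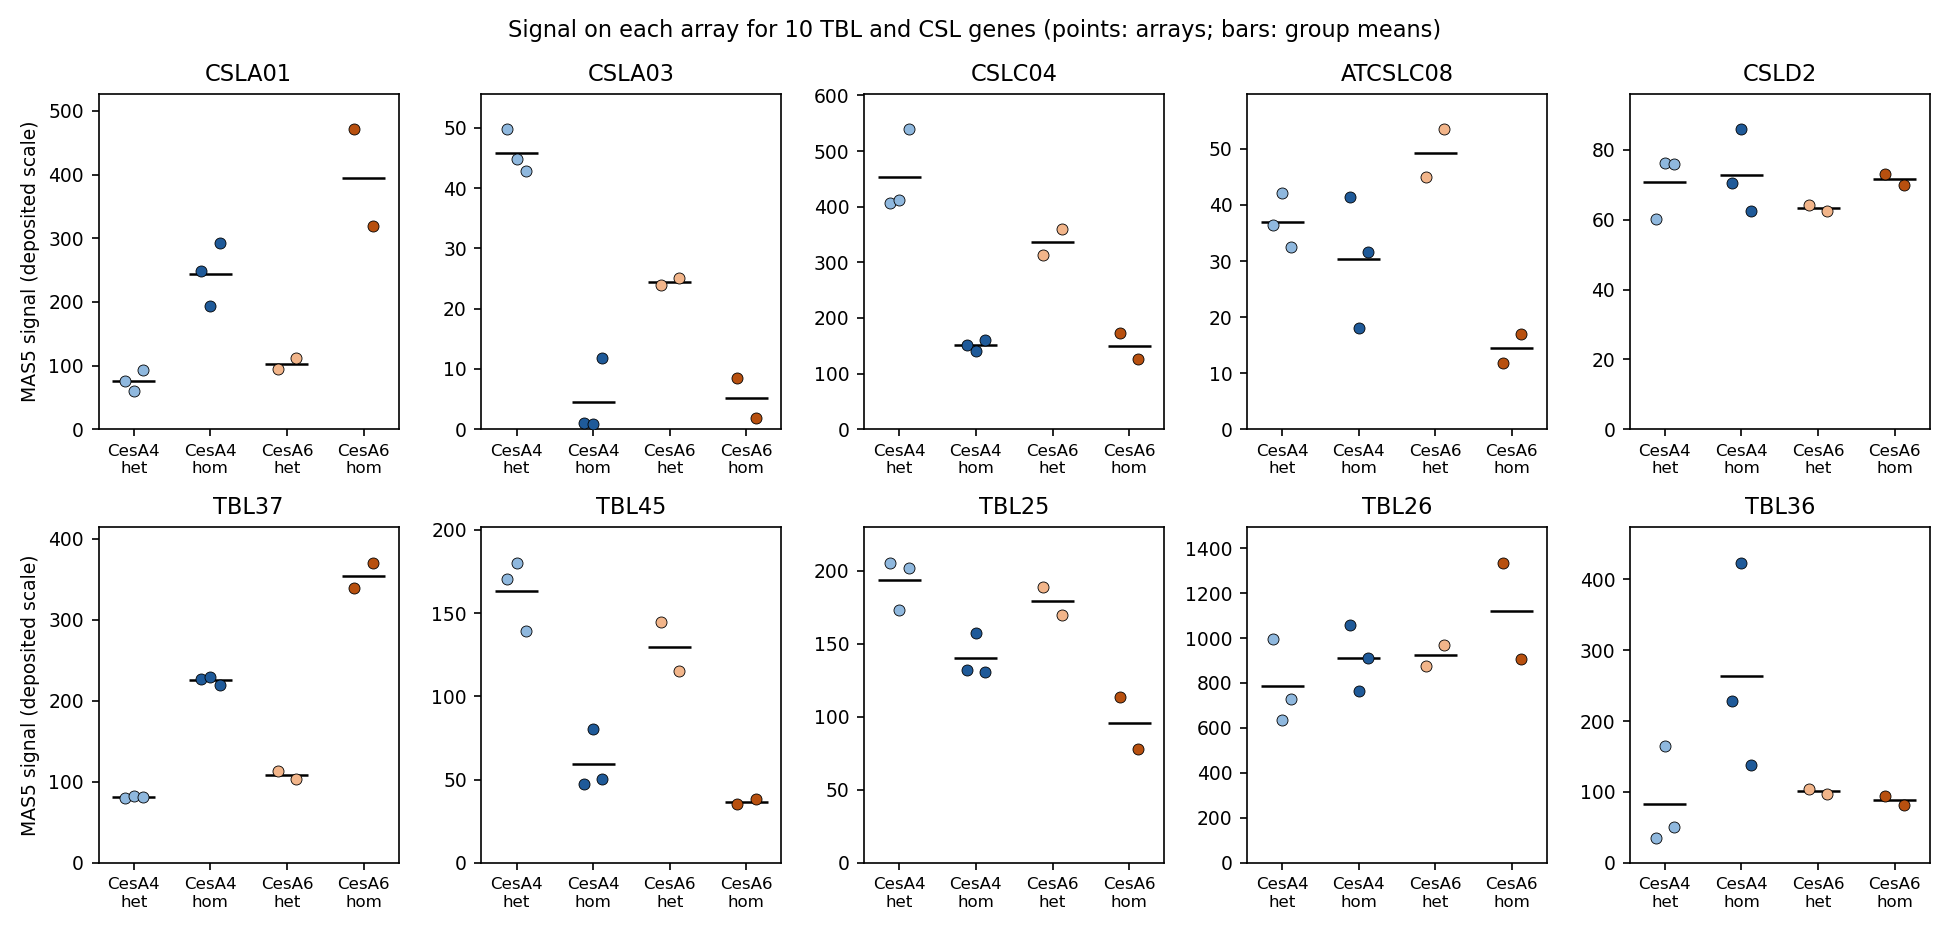
MAS5 signal on the deposited scale (linear axes from 0) of 10 TBL and CSL genes in the 4 groups, with a point for each array and a bar at the group mean. Heterozygous and homozygous arrays are apart in both lines for CSLA01, CSLA03, CSLC04, TBL37, TBL45 and TBL25, and they overlap for CSLD2, TBL26 and TBL36 in the CesA4 line.

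The CesA6 line had 2 arrays for each genotype. Of 25 tested members 6 were called, 2 higher (CSLA01 and TBL37) and 4 lower (CSLC04, ATCSLC08, TBL25 and TBL45). That is 24.0% of the members, where limma called 8.53% of all probe sets (3.72% higher and 4.80% lower). The choice of members with earlier results known may have raised the member share, so it is descriptive only. By family, 3 of 8 CSL and 3 of 17 TBL genes were called. The median log2 change of the members was -0.26, against -0.04 over all probe sets tested.

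CSLA01 read 470.9 and 319.6 in homozygous and 94.34 and 112.1 in heterozygous CesA6 plants. The homozygous arrays differed from each other but both were far above the heterozygous ones, with a log2 change of 1.88 ± 0.24 (adjusted p = 1.09e-05), or 3.69-fold. CSLA03 read 8.467 and 1.829 against 23.89 and 25.05. Both homozygous arrays were lower, as in the CesA4 line, but the change of -1.85 ± 0.72 did not pass (adjusted p = 0.125).

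Among the xyloglucan backbone genes, CSLC04 read 173.4 and 126.9 in homozygous and 313.4 and 359.6 in heterozygous CesA6 plants, a log2 change of -1.16 ± 0.20 (adjusted p = 0.000415). ATCSLC08, of the same subfamily, read 11.85 and 17.03 against 45.08 and 53.47. Its homozygous arrays were the lowest of the 10, and the change was -1.58 ± 0.41 (adjusted p = 0.0148). That call was lost without homozygous CesA6 replicate 1 (-1.37, adjusted p = 0.0954), heterozygous CesA6 replicate 1 (-1.70, adjusted p = 0.071) or heterozygous CesA6 replicate 2 (-1.47, adjusted p = 0.137). CSLC12, CSLC5 and CSLC6 stood at -0.79 ± 0.75, -0.44 ± 0.27 and 0.12 ± 0.27 and did not pass. CSLD2 read 73.12 and 70.05 against 64.18 and 62.63, a change of 0.17 ± 0.25 with an interval from -0.35 to 0.69.

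TBL37 read 338.7 and 369.9 in homozygous and 113.3 and 103.6 in heterozygous CesA6 plants. The homozygous arrays exceeded all other arrays of the study, and the log2 change was 1.68 ± 0.19 (adjusted p = 1.79e-06), or 3.20-fold. TBL45 read 35.24 and 38.12 against 144.6 and 115.1, a change of -1.73 ± 0.26 (adjusted p = 7.83e-05), or 3.32-fold lower.

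Of the mannan acetyltransferase genes, TBL25 was called in the CesA6 line, where it read 113.6 and 78.28 in homozygous and 188.9 and 169.7 in heterozygous plants. Both homozygous arrays were below the heterozygous ones, and the change was -0.90 ± 0.21 (adjusted p = 0.00779). The TBL25 call was lost without homozygous CesA6 replicate 2 (-0.64, adjusted p = 0.191), without heterozygous CesA6 replicate 1 (-0.83, adjusted p = 0.0934) and with eBayes without trend and robust (adjusted p = 0.0563). TBL26 read 1334 and 908.6 against 877 and 969.8, with overlap, at 0.25 ± 0.22, and TBL23 stood at 0.47 ± 0.29. None of the 5 xylan acetyltransferase genes passed. Their median was -0.67, from -0.96 ± 0.70 (TBL34) to 0.23 ± 0.53 (TBL32, AT3G11030, a probe set whose name marks it as shared between similar transcripts). TBL38 (AT1G29050) missed the threshold at 0.76 ± 0.27 (adjusted p = 0.0849), with 79.82 and 105.1 in homozygous and 55.23 and 50.32 in heterozygous CesA6 plants.

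**Figure D3:**
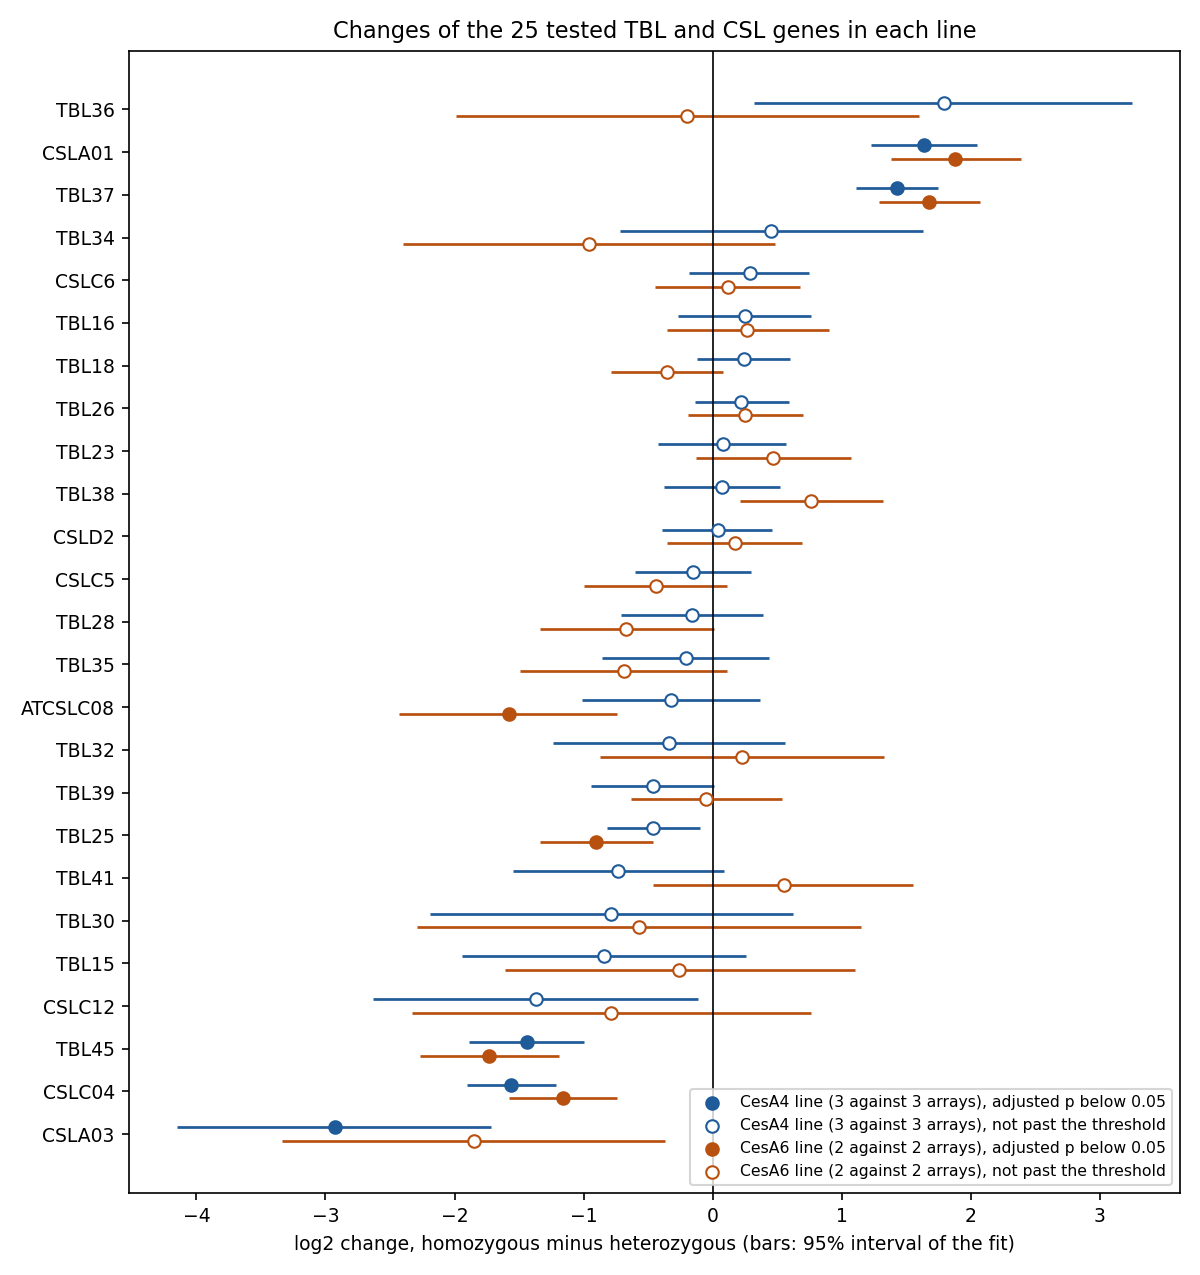
Log2 change, homozygous minus heterozygous, of the 25 tested members in the CesA4 line (blue) and the CesA6 line (orange), with 95% intervals of the fit and filled points for an adjusted p below 0.05. CSLA01 and TBL37 lie to the right and CSLC04 and TBL45 to the left of 0 in both lines, while the intervals of the xylan acetyltransferase genes TBL28, TBL30, TBL32, TBL34 and TBL35 all span 0.

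The lines share no arrays, but each probe set has 1 estimate of the spread for both. Of 25 tested members, 20 (80.0%) had the same sign in both lines, where 61.9% of all tested probe sets did. Of the 25 tested members, 4 were called in both lines, and 5.60% of all tested probe sets were. These 4 members kept their sign, but sign was not counted over all probe sets called in both lines. Their agreement therefore has no background share beside it. Pearson's r between the changes of the lines was 0.701 over the 25 members, which are not independent replicates, and 0.55 over all tested probe sets. Because the members were chosen with earlier results of these data known, these comparisons with all probe sets are descriptive only.

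Whether a member responded differently in the lines was tested by subtracting the change in the CesA6 line from that in the CesA4 line. None of the 25 members was called by limma, where 0.553% of all probe sets were. The 2 members with the smallest unadjusted p were ATCSLC08 and TBL18 (AT4G25360). ATCSLC08 had a difference of 1.27 ± 0.53 (adjusted p = 0.335), with an interval from 0.17 to 2.36. TBL18 had 0.59 ± 0.27 (adjusted p = 0.391), from 0.03 to 1.16. The intervals are not adjusted for the number of probe sets. TBL18 read 117.9, 122.7 and 127.1 in homozygous against 96.6, 104.1 and 109.4 in heterozygous CesA4 plants, and 94.8 and 82.84 against 124.2 and 105 in the CesA6 line. Its changes had opposite signs, but neither passed (0.24 ± 0.17 in the CesA4 line and -0.35 ± 0.21 in the CesA6 line). The intervals show how far the lines could differ. For TBL37 the difference was -0.25 ± 0.24, with an interval from -0.76 to 0.25, and for CSLC04 it was -0.39 ± 0.26, from -0.94 to 0.15. CSLA01 differed by -0.24 ± 0.31, from -0.89 to 0.41, and TBL45 by 0.29 ± 0.34, from -0.41 to 0.99. For the dim gene CSLA03 the difference was -1.08 ± 0.93. For TBL36 it was 1.98 ± 0.98, with an interval from -0.34 to 4.30. The TBL36 difference was called without heterozygous CesA4 replicate 2 (2.62, adjusted p = 0.0348). It stayed uncalled in 16 of 18 alternative settings, with values down to 1.54.

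**Figure D4:**
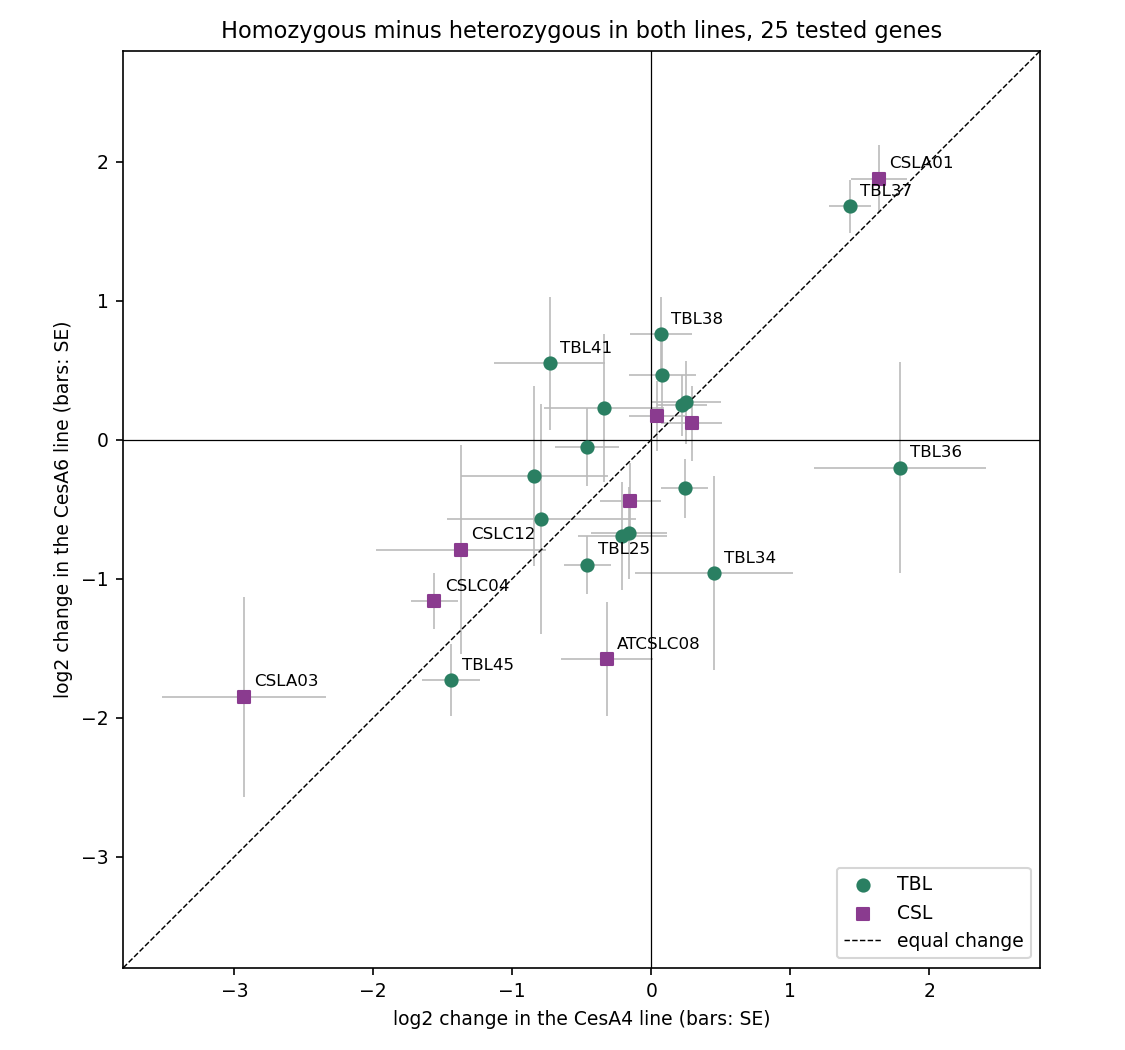
Log2 change of the 25 tested members in the CesA4 line (horizontal axis) and the CesA6 line (vertical axis), with bars of 1 SE, TBL genes as circles and CSL genes as squares, and a dashed line of equal change. CSLA01 and TBL37 lie together at the upper right, CSLC04, TBL45 and CSLA03 at the lower left, and TBL36 lies apart, at 1.79 in the CesA4 line and -0.20 in the CesA6 line.

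Last, all CesA4 arrays were compared with all CesA6 arrays, weighting both genotypes equally. The members higher in homozygous plants were also lower in the CesA4 line than in the CesA6 line. Of 25 tested members 2 were called, both lower (8.00%), where limma called 6.74% of all probe sets (2.64% higher and 4.11% lower). TBL37 was lower by a log2 change of -0.52 ± 0.12 (adjusted p = 0.01), with group means of 81.73 ± 1.25 (SD, n = 3) and 108.4 ± 6.81 (n = 2) in heterozygous and 225.0 ± 4.88 and 354.3 ± 22.0 in homozygous CesA4 and CesA6 plants. Within each genotype no CesA4 array reached a CesA6 array. CSLA01 was lower by -0.56 ± 0.16 (adjusted p = 0.0335), and its CesA4 arrays, given above, were below the CesA6 arrays of the same genotype. The CSLA01 call was lost in 9 of 18 alternative settings and the TBL37 call in 2, without homozygous CesA6 replicate 2 or heterozygous CesA6 replicate 1. Any difference in growth or processing that went with line cannot be told apart from line.

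The 5 members not tested were TBL19 (AT5G15900), TBL20 (AT3G02440), TBL21 (AT5G15890), TBL42 (AT1G78710) and TBL43 (AT2G30900). Their signals lay between 0.485 and 19.89 over all arrays. TBL43 read 1.028 and 0.9784 in homozygous and 6.531 and 8.828 in heterozygous CesA6 plants, and 3.559, 1.174 and 17.29 against 19.89, 13.39 and 11.34 in the CesA4 line. With every probe set tested, none of the 5 passed in any comparison. TBL19 and TBL21 are neighbours on chromosome 5 of the reference with no gene between them, and both were dim. TBL28 (AT2G40150) and TBL30 are neighbours on chromosome 2, and neither passed. TBL28 stood at -0.16 ± 0.27 and -0.67 ± 0.33 in the CesA4 and CesA6 lines, and TBL30 at -0.79 ± 0.68 and -0.57 ± 0.83. The remaining tested members, TBL15, TBL16, TBL39 and TBL41, had changes from -0.84 ± 0.53 (TBL15, CesA4 line) to 0.55 ± 0.48 (TBL41, CesA6 line), and none passed.

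Lists of other wall genes by locus were set beside the members, and few of their genes had a named probe set. TBR (AT5G06700), after which the TBL family is named, was lower in homozygous CesA6 plants, at -0.58 ± 0.18 (adjusted p = 0.0465), and stood at -0.31 ± 0.15 in the CesA4 line (adjusted p = 0.175). It was the only one of 5 listed family genes with other names that was tested. Of 5 acetylation partners, 1 was tested (AT3G03210 by the list, at 0.55 ± 0.25 and 0.13 ± 0.31 in the CesA4 and CesA6 lines), and it passed in neither. Of 12 loci listed as pectin acetylesterases, 5 were tested. AT1G57590 was higher in both lines, at 1.02 ± 0.20 (adjusted p = 0.00074) and 0.96 ± 0.24 (adjusted p = 0.0138), and AT3G05910 was lower in the CesA4 line, at -0.84 ± 0.15 (adjusted p = 0.000328), and stood at -0.27 ± 0.19 in the CesA6 line. The annotation used here gives these loci no symbol, so their grouping rests on the list. Of 11 loci for mannan synthesis and turnover 1 was tested and did not pass, and of 11 for xyloglucan side chains none had a named probe set, so the partners of CSLA and CSLC were hardly covered. Of 16 xylan synthesis loci 3 were tested, and IRX15-L (AT5G67210) alone passed. It was higher in homozygous plants of the CesA4 line, at 1.72 ± 0.18 (adjusted p = 3.31e-07), stood at 0.16 ± 0.23 in the CesA6 line, and passed the test of the difference at 1.56 ± 0.29 (adjusted p = 0.0138). Of 15 loci for cellulose synthases and their partners 2 were tested. COB (AT5G60920), which guides cellulose deposition, was lower in the CesA4 line at -0.61 ± 0.13 (adjusted p = 0.00196). It stood at -0.41 ± 0.16 in the CesA6 line (adjusted p = 0.132). Its difference between the lines was not called (-0.20 ± 0.21), by a test with little power.

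The leaf marker RCA, the activase of the carbon-fixing enzyme Rubisco, had group means from 10360 to 11190, and its change passed in neither line. SBPASE, of the Calvin cycle, was lower in homozygous CesA4 plants at -0.40 ± 0.12 (adjusted p = 0.0224), and stood at 0.05 ± 0.15 in the CesA6 line. The other 5 leaf markers had no named probe set, nor had any of 6 listed xylem and fibre markers, so vascular tissue was not analysed here. The 1 flower marker with a probe set read at most 14.74.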

How the data were processed

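Biotin-labelled RNA of whole rosettes was hybridised to 10 ATH1 arrays, per the labels' protocols. The deposited values are intensities, MAS5 signals from GCOS per the submitters' processing notes; versions and detection calls were not used here. The values show that each array had been scaled to a common trimmed mean. From there the signals were multiplied so that the 2% trimmed mean became 500, and log2 was taken after adding 16. The 64 control probe sets and the lowest 30% by mean were left out. The fit used limma 3.58.1 in R 4.3.3 with a mean per group, eBayes with trend and robust, 6 residual degrees of freedom, and Benjamini-Hochberg adjustment over 15923 probe sets.

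Gene names came from the platform annotation, and all 30 members matched TAIR10.1 by gene ID. Members called in any of 4 comparisons, and the member with the highest mean in each subfamily, are given in full; for other lists up to 4 called genes are named. The members and lists were chosen with earlier results of these data known. Known changes put into simulated data were used to check the fit. The number of arrays limits the precision. Alternatives covered pseudocount, filter, scaling, variance model, arrays fitted, a replicate block and each array left out.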

Additional observations from a re-analysis of the deposited data

How the results depend on the processing

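Of the 13 calls on members, 9 of the 11 within lines held in every alternative, none reversed, and in all 226 of 243 values kept the call. The exceptions within lines were ATCSLC08 and TBL25 in the CesA6 line, given above. The lowest 50% filter removed CSLA03 and ATCSLC08, so they have no value there. With arrays left out in turn, 5 to 6 members were called in the CesA4 line, 4 to 6 in the CesA6 line, 0 to 1 in the difference and 0 to 2 in the line comparison, where quantile normalization and eBayes without trend and robust each left 1. Counts over all probe sets ran from 1943 to 2351, 716 to 1553, 14 to 130 and 499 to 1103 in the same order. In the CesA6 line it was 716 without homozygous CesA6 replicate 2, and 777 and 789 without heterozygous CesA6 replicate 1 and 2. In the difference these gave 17, 14 and 19, and homozygous CesA4 replicate 1 and heterozygous CesA4 replicates 1 and 3 gave 41, 39 and 39. The line comparison gave 662 without homozygous CesA6 replicate 1 and 499 without heterozygous CesA6 replicate 1. With eBayes without trend and robust they were 747 in the CesA6 line, 0 in the difference (limma, where 1629 probe sets, 6 of them members, had an unadjusted p below 0.05) and 428 in the line comparison. Small uncalled values turned sign. CSLD2 in the CesA4 line became -0.00 with quantile normalization, and from -0.08 to 0.14 with arrays left out, and TBL26 in the CesA6 line ran from -0.02 (without homozygous CesA6 replicate 1) to 0.53. The cause was not tested. Same-numbered arrays were not shown to be pairs, since their deviations correlated at 0.0145 to 0.0822. With the replicate number as a replicate block, 197 probe sets were called in the difference, among the members TBL36 alone, at 1.98 (adjusted p = 0.00833), and TBL36 also passed in the CesA4 line (1.79, adjusted p = 5.58e-06). Dim members such as TBL30 had SEs up to 0.83 within lines, so changes of their size could not be called.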
